A study of Arabidopsis thaliana with 64 samples.

Results

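The 26S proteasome is the protease complex that degrades ubiquitin-tagged proteins, and 49 of its subunit genes were followed here through 40 RNA-seq libraries of Arabidopsis thaliana leaves. The genes were chosen by identifier from the deposited table of 28775 genes. They comprise 12 genes of the 20S alpha subunits (PAA to PAG), 11 genes of the 20S beta subunits (PBA to PBG), 10 genes of the regulatory particle ATPases (RPT) and 16 genes of the regulatory particle non-ATPase subunits (RPN). All 49 genes passed the filter of 1 RPM (reads of a gene scaled to a common library total) in at least 2 libraries, as did 19824 genes in all. Members whose gene table entry carries no subunit symbol are called by their identifier, and their class is that of the list.

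Leaves came from plants 4 weeks old under a day length of 16 hours, which were kept as controls, subjected to dehydration for 4 hours, or subjected to starvation of fixed carbon for 5 days. The 5 genotypes were wild type (WT), bes1-D, bri1-301, atg7-2 and DSK2 RNAi. BES1 is a transcription factor of the brassinosteroid pathway and bes1-D a gain-of-function allele of it. The line bri1-301 carries a weak allele of the brassinosteroid receptor gene BRI1, atg7-2 is a mutant of the autophagy gene ATG7, and DSK2 RNAi is a knockdown of ubiquitin-binding shuttle proteins. The labels do not state the accession, the means of starvation, the number of plants per library or the number of independent RNAi lines. The 15 groups hold 3 libraries each for control and dehydration and 2 each for starvation. Nothing in the labels says that libraries came from separate plants, so each p-value reflects the spread among these libraries alone.

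The complex has a barrel, the 20S core, whose outer rings are alpha subunits and whose inner rings are beta subunits with the proteolytic sites of PBA, PBB and PBE facing the inside. The regulatory particle caps the barrel. Its RPT ATPases unfold substrates and open the gate, while RPN subunits form the lid and the scaffold, and RPN10 is a ubiquitin receptor that in Arabidopsis also links proteasomes to autophagy. Many subunits are encoded by a pair of gene copies in this species.

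The depth was 26634819 to 30375860 reads per library, as recovered from the deposited values. A floor of 3 reads was 0.101 to 0.114 RPM and covers counting error only, and every member lay above 1 RPM in every library. Libraries differed in how their values depended on transcript length. The slope of a library, in log2 units of deviation from each gene's mean over libraries per log2 unit of transcript length, ran from −0.97 to 0.49. This touches the comparison of core with regulatory particle, because the core transcripts had a median annotated length of 1237 bases (872 to 1469) and those of the regulatory particle 1790.5 bases (1334 to 3517). The slope of 4 libraries lay more than 0.25 from the median of their group of 3. They were atg7-2 control replicate 3, bes1-D control replicate 3, bes1-D dehydration replicate 3 and WT dehydration replicate 3. The 2 bri1-301 starvation libraries lay on opposite sides, at −0.45 and 0.47. The balance between core and regulatory particle is therefore also given after removal of each library's trend on transcript length. Counts of calls are given in that way only where stated.

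The knockdown was visible in the DSK2 RNAi libraries. The transcript AT2G17190, a DSK2 gene, stood at 6.06 to 10.2 RPM in its 8 libraries and at 47.0 to 153 RPM in all others. Its neighbour DSK2 (AT2G17200) stood at 14.3 to 18.5 RPM in the knockdown line in control and dehydration and at 124.5 and 186 RPM in its 2 starvation libraries, where the other genotypes had 124 to 303 RPM. ATG7 was not lower in the libraries labelled atg7-2, with 14.2 to 17.9 RPM in control against 6.15 to 16.4 RPM in the other genotypes. Where the atg7-2 lesion lies is not stated in the labels, so this level does not check that label. The alleles bes1-D and bri1-301 are known as changes of the protein, which a transcript level does not check. The leaf label was matched by high levels of 4 mesophyll genes (26341 to 61223 RPM summed in control), which summed to 703 to 2296 RPM in the starvation libraries. Sums of 3 xylem markers were 19.9 to 68.3 RPM in control and 0.0682 to 0.82 RPM in starvation, and 5 floral organ markers summed to 0.852 to 11.7 RPM in control and 9.76 to 37.4 RPM in starvation. No marker of these lists was at 0 throughout, and the part of changed tissue makeup in the starvation results was not tested. In bulk leaves fewer cells of a type and less RNA per cell cannot be told apart.

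The promoters of the genes were compared for short motifs in a window from 250 bases before to 50 bases after the annotated gene start, in 300 bases of the RefSeq TAIR10.1 reference. The files themselves hold no coordinates and the submitters' processing notes name TAIR10. The letters TGGGC or their reverse complement GCCCA, the core of the site II element known from promoters of plant growth and housekeeping genes, occurred in 29 of 49 members (59.2%) and in 29.3% of the 19391 promoters of tested genes. At least 2 matches were found in 22 members (44.9%) and in 17.6% of those promoters. Matches on both strands were counted and may overlap. By class, 6 of 12 alpha, 9 of 11 beta, 5 of 10 RPT and 9 of 16 RPN genes held a match. The telo-box core AAACCCT was found in 8.16% of members and 9.11% of promoters, and the G-box CACGTG in 2.04% and 9.12%. These are matches of letters and say nothing about factors that bind there.

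The windows of RPT3, the member that rose most under starvation, of the gene pair whose log2 ratio moved most, RPN5A and RPN5B, and of RPN1A, which tied with RPN1B for the most matches, are shown 5′ to 3′ with TGGGC or GCCCA in capitals. The RPT3 window is chr5:23568802-23569101 on the plus strand and holds 2 matches. The RPN5A window is chr5:3092971-3093270 on the minus strand and holds 0, while that of RPN5B is chr5:25896537-25896836 on the minus strand and holds 2. The RPN1A window is chr2:8858712-8859011 on the plus strand and holds 5, of which a pair overlaps.
RPT3: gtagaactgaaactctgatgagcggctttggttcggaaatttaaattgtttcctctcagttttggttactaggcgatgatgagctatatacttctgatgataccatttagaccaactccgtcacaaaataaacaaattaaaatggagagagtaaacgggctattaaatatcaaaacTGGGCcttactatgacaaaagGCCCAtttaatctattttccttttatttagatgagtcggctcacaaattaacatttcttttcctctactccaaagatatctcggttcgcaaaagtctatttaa
RPN5A: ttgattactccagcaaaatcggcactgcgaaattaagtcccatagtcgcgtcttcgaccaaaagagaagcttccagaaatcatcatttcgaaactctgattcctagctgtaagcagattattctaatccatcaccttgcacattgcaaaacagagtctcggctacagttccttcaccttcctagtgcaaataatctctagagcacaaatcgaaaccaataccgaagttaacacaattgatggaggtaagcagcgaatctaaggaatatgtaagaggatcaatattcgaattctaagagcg
RPN5B: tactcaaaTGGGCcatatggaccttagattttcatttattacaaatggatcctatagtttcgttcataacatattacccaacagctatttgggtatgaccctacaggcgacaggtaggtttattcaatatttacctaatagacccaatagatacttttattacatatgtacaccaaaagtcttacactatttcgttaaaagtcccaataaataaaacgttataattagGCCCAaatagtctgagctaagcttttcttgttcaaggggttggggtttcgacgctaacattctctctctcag
RPN1A: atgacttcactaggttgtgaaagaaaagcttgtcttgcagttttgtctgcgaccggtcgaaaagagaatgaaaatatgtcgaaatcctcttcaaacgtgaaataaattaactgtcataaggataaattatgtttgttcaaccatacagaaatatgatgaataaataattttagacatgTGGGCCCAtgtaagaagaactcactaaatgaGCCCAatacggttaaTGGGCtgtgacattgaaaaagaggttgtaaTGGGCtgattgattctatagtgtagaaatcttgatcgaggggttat

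In unstressed WT leaves all 49 genes were expressed. Levels between genes are compared per kb of annotated transcript. Summed over the gene copies of the list, the 14 core subunits had a median of 84.0 RPM per kb (41.0 to 186). The 17 listed subunits of the regulatory particle had a median of 47.5 RPM per kb (25.4 to 89.8). The 7 further annotated subunit genes treated below are not in these sums. The highest subunit was PAD, an alpha subunit, with 186 ± 8.51 RPM per kb (SD, n = 3), followed by PBA1, which carries a proteolytic site, with 124 ± 2.74 RPM per kb. Within the regulatory particle the ATPase RPT3 led with 89.8 ± 12.5 RPM per kb. RPT2 and RPT5 followed with 82.2 ± 11.0 and 81.9 ± 10.4 RPM per kb, which lay within one another's SD and within that of RPT3. The lowest of the listed subunits was the sum of RPT6A and AT5G20000 with 25.4 ± 2.95 RPM per kb. It was close to RPN8A, a single gene in the list, with 26.4 ± 4.53 RPM per kb. Among single genes the lowest was RPN5B with 3.42 RPM per kb.

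The summed level of the 49 transcripts had a median of 3230 RPM over the 15 control libraries (2057 to 3700), 3292 RPM over the 15 dehydration libraries (2599 to 3852) and 3251 RPM over the 10 starvation libraries (2734 to 4155). The ranges of the 3 treatments overlapped with genotypes pooled. In DSK2 RNAi alone the starvation range (3901 to 3919 RPM) lay above the control range (3145 to 3700 RPM). In the other genotypes these ranges overlapped. The sum joins core and regulatory particle, whose balance is given below.

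Dehydration for 4 hours gave no detected change of the proteasome genes. No member was called in any genotype by limma at an adjusted p under 0.05. The share of all tested genes called was 0.298% in WT, 0.0% in atg7-2, 3.82% in DSK2 RNAi, 1.18% in bes1-D and 0.797% in bri1-301. The mean over genotypes has more libraries behind it, and there 17.9% of all genes were called and again 0 of 49 members. At an unadjusted p under 0.05 a single member passed in that mean, and edgeR and DESeq2 on the recovered reads each called 2. Member changes in the mean ran from −0.15 (AT5G45620) to 0.25 (AT5G20000) on the log2 scale. Their median absolute change was 0.05, against 0.13 over all tested genes, which were not matched to the members for expression level. Each class included a gene with almost no change: PAF2 at −0.01 ± 0.10 (SE), PBA1 at 0.01 ± 0.05, RPT6A at 0.02 ± 0.10 and RPN1B at 0.00 ± 0.14.

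The gene nearest to a call under dehydration was the ATPase gene AT5G20000, with a log2 change of 0.25 ± 0.09 and an adjusted p of 0.0519 from limma. It passed under 15 of 41 settings, which include the main one and those that leave out a library. Its change ran from 0.22 to 0.29 over these settings and its adjusted p from 0.00458 to 0.11. RPT2A passed under 3 settings and AT3G26340 under 1. All 3 genes were higher where they passed.

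Starvation moved most members, but by little compared with other genes. In the mean over genotypes 33 of 49 members were called, 13 higher and 20 lower, where 80.9% of all tested genes were called (32.0% higher and 48.9% lower). A change of more than 1 on the log2 scale was seen in 2 members, RPT3 and RPN5B, and in 42.3% of all tested genes. Control and starvation libraries did not overlap for 32 of 49 members in WT, 36 in atg7-2 and 31 in DSK2 RNAi. In bes1-D this held for 17 members and in bri1-301 for 22. Of all tested genes it held for 79.0% in WT, 86.1% in atg7-2, 75.0% in DSK2 RNAi, 66.3% in bes1-D and 60.4% in bri1-301. The median absolute log2 change was 0.33 for members and 0.82 for all genes, which were not matched to the members for expression level. The split of calls rests on the scaling. The median change of all genes was −0.26 with RPM as deposited and −0.01 after median-of-ratios scaling, and the members called under that scaling were 21 higher and 14 lower. The median of the members moved with it, from −0.16 to 0.12, and lay above that of all genes in both. Across 6 settings (RPM as deposited, a pseudocount of 0.1, median-of-ratios scaling, removal of the length trend, edgeR and DESeq2) 13 members were called higher under every setting and 14 lower under every setting, and 0 were called in opposite directions. The share of all tested genes over the same settings is not given, so these counts are not set against it.

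**Figure D1:**
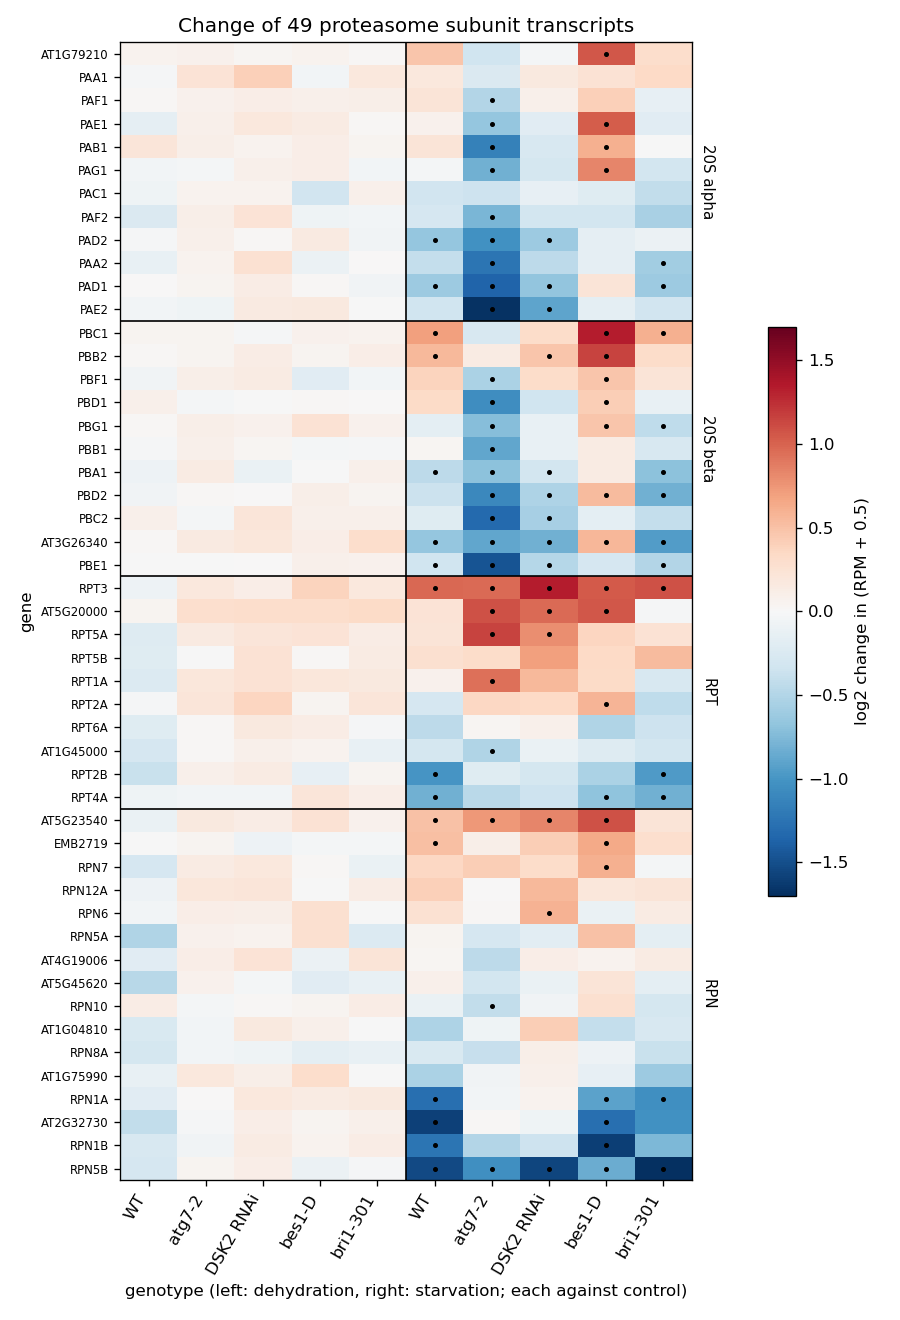
Log2 change in RPM + 0.5 of each of the 49 genes (rows, by class and sorted by their mean starvation change) in each genotype (columns), for dehydration on the left and starvation on the right, against control. Colour gives the change and a black dot marks a limma call at an adjusted p under 0.05. There are no dots under dehydration, RPT3 and RPN5B have dots in all 5 genotypes under starvation, and the 20S rows are mostly blue in atg7-2 and red in several rows in bes1-D.

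Among the 12 alpha subunit genes, which build the outer rings and the gate, 1 was called higher and 6 lower in the mean over genotypes. PAE2 stood at 32.2, 24.2 and 33.2 RPM in WT control and at 22.1 and 24.4 RPM in WT starvation, and at 24.7, 28.7 and 28.7 RPM against 8.07 and 8.30 RPM in atg7-2. The WT groups overlapped and the atg7-2 groups were far apart. Its mean change was −0.68 ± 0.11 (SE) with an adjusted p of 7.8e-07 from limma. PAD1 fell from 139, 108 and 128 RPM to 81.1 and 81.3 RPM in WT, with a mean log2 change of −0.61 ± 0.09 and an adjusted p of 1.71e-07, although bes1-D alone had a positive change (0.21, not called). PAE1, the partner copy of PAE2, had the smallest change of the class, 0.01 ± 0.10, which hides a call of −0.65 in atg7-2 and one of 1.03 in bes1-D. The alpha gene that was called higher was AT1G79210, at 0.29 ± 0.11.

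Among the 11 beta subunit genes 3 were called higher and 7 lower. PBE1, whose subunit carries a proteolytic site, stood at 91.7, 100.1 and 98.0 RPM in WT control and at 81.2 and 71.9 RPM in WT starvation, without overlap. In atg7-2 it stood at 99.2, 109.7 and 105 RPM against 40.1 and 35.0 RPM. Its mean log2 change was −0.61 ± 0.06 (adjusted p 4.08e-10), and it was called lower in 4 genotypes, bes1-D being the exception. AT3G26340, the gene list's second copy of the PBE subunit, had a mean change of −0.54 ± 0.10. It was called lower in 4 genotypes and higher in bes1-D, where it stood at 8.32, 10.7 and 6.26 RPM in control and at 13.1 and 11.9 RPM in starvation. The 3 beta genes called higher were PBC1 (0.53 ± 0.08), PBB2 (0.53 ± 0.08) and PBF1 (0.17 ± 0.08). PBD1 had the smallest change of the class, −0.16 ± 0.08, and it turned to 0.15 when the length trend was removed.

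The 10 ATPase genes rose more often than they fell, with 5 called higher and 3 lower. RPT3 stood at 168, 215 and 174 RPM in WT control and at 349 and 376 RPM in WT starvation. It stood at 192, 229.5 and 212 RPM against 563 and 506 RPM in DSK2 RNAi, and at 206, 187 and 210.0 RPM against 324 and 557 RPM in bri1-301. In all 5 genotypes every starvation library lay above every control library. The mean log2 change of RPT3 was 1.08 ± 0.11 (adjusted p 1.7e-10), between 0.96 and 1.34 in single genotypes, and it was the only member called higher in all 5. AT5G20000 rose by 0.66 ± 0.10 in the mean (adjusted p 6.05e-07) and was called in atg7-2, DSK2 RNAi and bes1-D. RPT5A (0.56 ± 0.13), RPT5B (0.43 ± 0.15) and RPT1A (0.32 ± 0.13) were also called higher in the mean over genotypes. Within single genotypes RPT5A was called higher in 2, RPT1A in 1 and RPT5B in 0. RPT4A and RPT2B fell by 0.62 and 0.60 on the log2 scale and were called under all 6 settings. AT1G45000 was called at −0.29, but at −0.01 after median-of-ratios scaling and with the length trend removed it was not. RPT2A had the smallest change, 0.11 ± 0.10, and was called at 0.35 to 0.40 under 4 of the 6 settings.

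Of the 16 non-ATPase genes 4 were called higher and 4 lower. RPN5B, a lid subunit gene with low levels, stood at 6.18, 5.89 and 6.26 RPM in WT control and at 1.65 and 1.93 RPM in WT starvation. In bri1-301 it stood at 6.92, 12.4 and 6.65 RPM against 1.22 and 3.87 RPM, and in bes1-D, where the groups overlapped, at 5.75, 6.97 and 3.26 RPM against 3.44 and 1.98 RPM. Its mean change was −1.33 ± 0.17 (adjusted p 1.23e-08), and it was the only member called lower in all 5 genotypes. RPN5A, its partner copy, had the smallest change of the class, −0.02 ± 0.12. That value turned to between 0.22 and 0.29 under median-of-ratios scaling, edgeR, DESeq2 and removal of the length trend. AT5G23540, annotated as a Mov34/MPN/PAD-1 family protein, rose from 70.4, 88.7 and 75.6 RPM to 103 and 119 RPM in WT and by 0.67 ± 0.09 in the mean. It was called in every genotype but bri1-301. EMB2719 (0.39 ± 0.09), RPN7 (0.33 ± 0.11) and RPN12A (0.28 ± 0.12) were the other 3 called higher.

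The other 3 genes that fell in this class are among the 4 members with the longest transcripts, of which AT1G04810 (3435 bases) was not called. RPN1B (3252 bases), RPN1A (3091 bases) and AT2G32730 (3517 bases), which encode the large scaffold subunits RPN1 and Rpn2/Psmd1, fell by 0.89, 0.64 and 0.79 on the log2 scale. Without the length trend they fell by 0.47, 0.23 and 0.37 and were still called. These values are means over genotypes, and none of these genes was called in atg7-2 or DSK2 RNAi. With RPM as deposited the changes in these 2 genotypes were −0.49 and −0.35 for RPN1B and −0.04 and 0.06 for RPN1A. For AT2G32730 they were 0.02 and −0.07. In WT AT2G32730 stood at 64.9, 112 and 80.8 RPM in control and at 22.5 and 33.6 RPM in starvation, and its change of −1.59 ± 0.46 was the largest of all members there, ahead of RPN5B (−1.53 ± 0.37) and RPN1A (−1.29 ± 0.34). Without WT starvation replicate 1 it was −1.31 and not called. The 2 bri1-301 starvation libraries, whose length slopes were −0.45 and 0.47, gave 22.1 and 99.6 RPM for AT2G32730 and 25.6 and 76.8 RPM for RPN1A. Their controls stood at 90.1 to 102 RPM and 91.3 to 94.2 RPM. For AT2G32730 the first library alone lay below its controls, and for RPN1A both did, the first by far the lower.

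**Figure D2:**
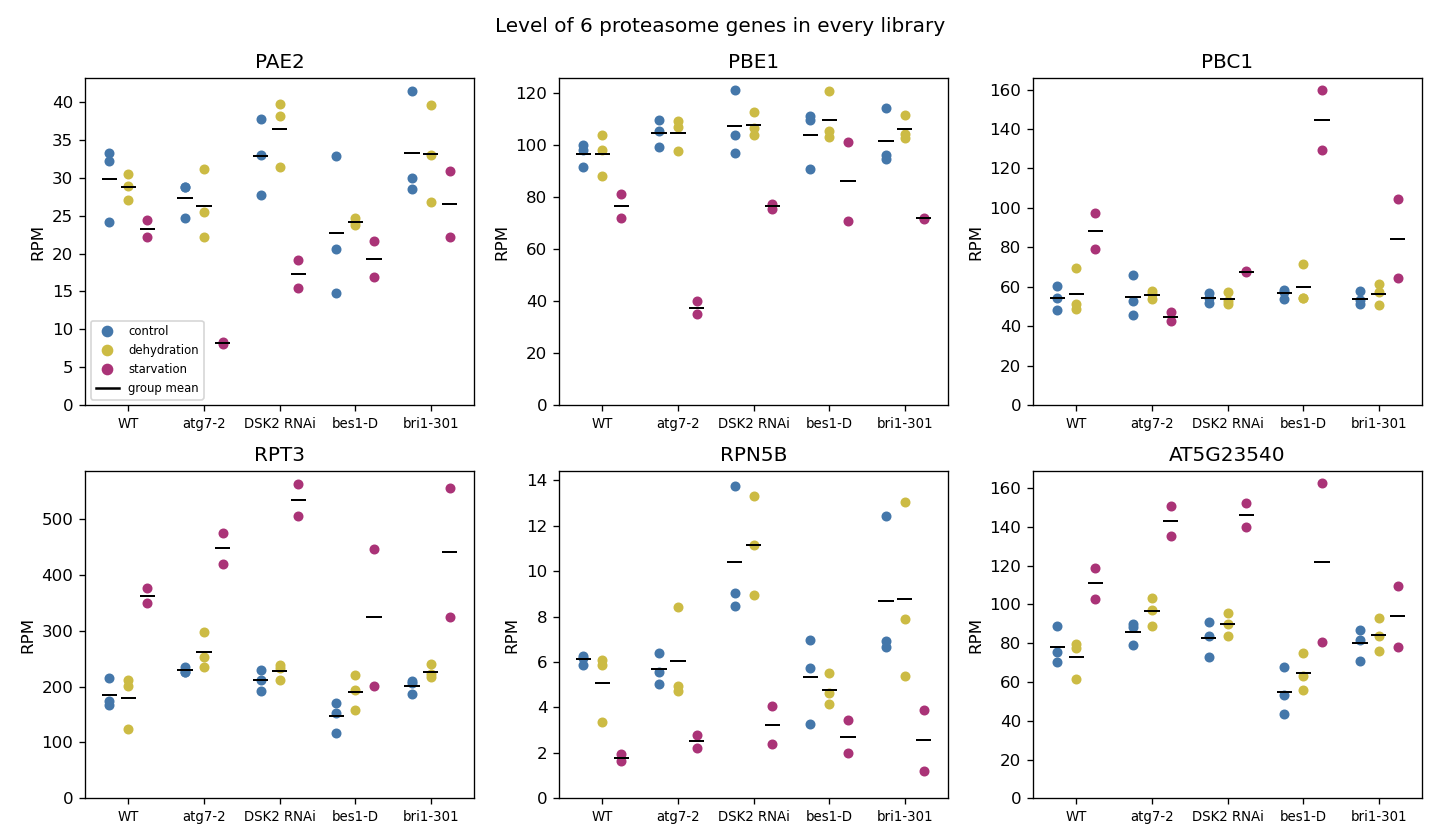
RPM of 6 members in every library, grouped by genotype on the horizontal axis and coloured by treatment, with a black bar at each group mean. Starvation libraries of RPT3 and AT5G23540 lie mostly above and those of RPN5B mostly below their controls, PAE2 and PBE1 reach their lowest levels in atg7-2 starvation, and PBC1 its highest in bes1-D starvation.

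The balance between core and regulatory particle under starvation differed between genotypes. It is given as the mean log2(RPM + 0.5) of the 23 core genes minus that of the 26 regulatory particle genes in each library, as a description and with no test. In control it was 0.21 ± 0.14 in WT, 0.09 ± 0.17 in atg7-2, 0.06 ± 0.07 in DSK2 RNAi, 0.41 ± 0.08 in bes1-D and 0.04 ± 0.09 in bri1-301 (SD, n = 3). In starvation it was 0.37 ± 0.12 in WT, −0.79 ± 0.06 in atg7-2, −0.39 ± 0.08 in DSK2 RNAi and 0.77 ± 0.41 in bes1-D (SD, n = 2). The 2 bri1-301 starvation libraries had 0.60 and −0.48. The balance was thus low in both atg7-2 and both DSK2 RNAi starvation libraries and high in WT and bes1-D, and within bri1-301 it took either sign.

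This order followed the length slope of the libraries. The mean slope was 0.45 in atg7-2 starvation, 0.29 in DSK2 RNAi starvation, −0.41 in WT starvation and −0.75 in bes1-D starvation. With the length trend removed from each library, the balance in control lay between 0.15 and 0.20 in all 5 genotypes, and in starvation it was 0.11 ± 0.04 in WT, −0.43 ± 0.01 in atg7-2, −0.15 ± 0.02 in DSK2 RNAi and 0.22 ± 0.13 in bes1-D. The 2 bri1-301 starvation libraries then had 0.31 and −0.09. The lower balance in atg7-2 and DSK2 RNAi starvation than in their controls was smaller but present after this step. In WT starvation the mean balance lay above that of control with RPM as deposited, but the libraries overlapped (0.28 and 0.45 against 0.05 to 0.32). After this step the WT starvation libraries lay below control (0.14 and 0.09 against 0.15 to 0.26). In bes1-D the 2 groups then lay within their spread. Dehydration groups had a balance of 0.03 to 0.39, and of 0.14 to 0.27 with the length trend removed. WT dehydration replicate 3, one of the libraries apart by slope, stood out at 0.90 and 0.45.

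**Figure D3:**
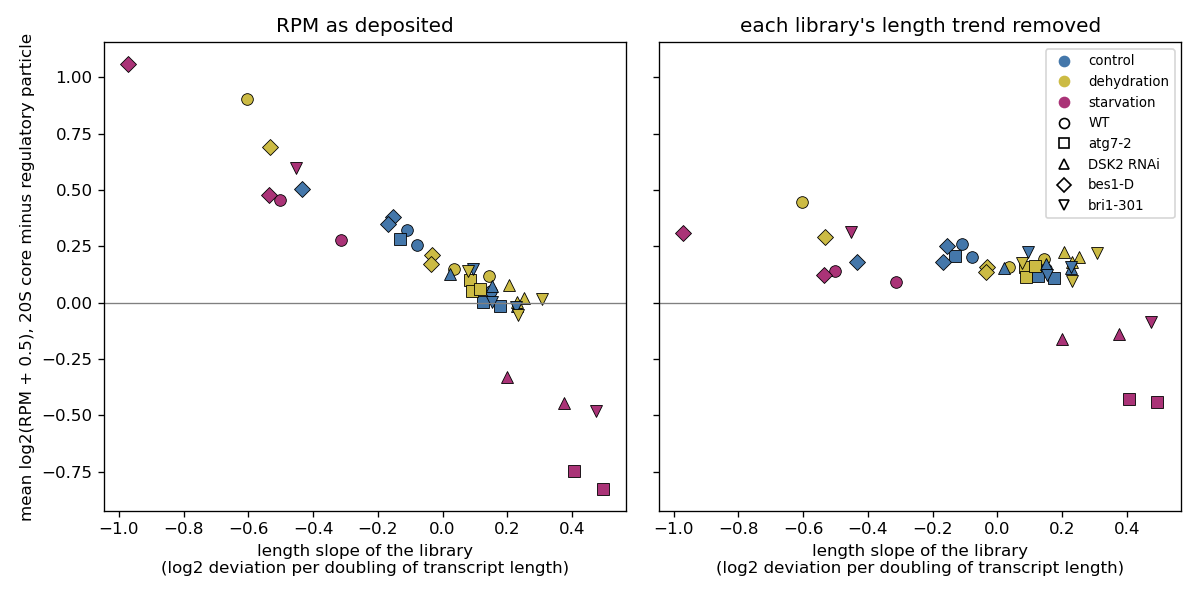
Mean log2(RPM + 0.5) of the 23 core genes minus that of the 26 regulatory particle genes (vertical axis) against the length slope of the library (horizontal axis), 1 point per library, coloured by treatment and shaped by genotype. On the left, with RPM as deposited, the values fall from 1.06 to −0.83 as the slope rises. On the right, with each library's length trend removed, control libraries lie between 0.11 and 0.26 and the 2 atg7-2 starvation libraries remain lowest at −0.44 and −0.43.

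The number and direction of calls also varied between genotypes. In WT starvation 16 members were called (5 higher, 11 lower), where 60.4% of all tested genes were called (24.7% higher, 35.7% lower), and 9 members without WT starvation replicate 1. The core of WT had 2 higher and 5 lower and the regulatory particle 3 and 6. In libraries labelled atg7-2 it was 26 (5 higher, 21 lower), where 69.5% of genes were called (22.3% higher, 47.2% lower). Of these the core contributed 0 higher and 18 lower and the regulatory particle 5 higher and 3 lower. Without the length trend the core of atg7-2 had 4 higher and 7 lower and the regulatory particle 13 higher and 1 lower. For the other genotypes the split by core and regulatory particle is given with RPM as deposited only. In DSK2 RNAi 15 members were called (6 higher, 9 lower), where 61.0% of genes were called (24.9% higher, 36.0% lower), with 1 higher and 8 lower in the core and 5 higher and 1 lower in the regulatory particle. In bes1-D it was 22 (17 higher, 5 lower), where 66.0% of genes were called (26.1% higher, 39.9% lower), with 11 higher and 0 lower in the core and 6 higher and 5 lower in the regulatory particle. In bri1-301 13 were called (2 higher, 11 lower), where 54.1% of genes were called (21.8% higher, 32.3% lower), with 1 higher and 7 lower in the core and 1 higher and 4 lower in the regulatory particle. After median-of-ratios scaling the split of higher and lower calls was 12 and 6 in WT, 14 and 7 in atg7-2, 13 and 5 in DSK2 RNAi, 29 and 2 in bes1-D and 8 and 10 in bri1-301. In every genotype the share of members called was below that of all genes.

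Calls in opposite directions between genotypes were made for 8 members, all core genes, and for 6.14% of all tested genes. AT3G26340, PBD1, PBD2, PBF1, PBG1, PAB1, PAE1 and PAG1 were each called higher in at least 1 genotype and lower in another. For each of these 8 genes the higher call included bes1-D, and the lower call included atg7-2. The mean length slope of the starvation libraries was −0.75 in bes1-D and 0.45 in atg7-2, and core transcripts are the shorter ones. These calls are with RPM as deposited, and the part of the length trend in them was not tested. PAB1, an alpha subunit gene, stood at 72.7, 69.6 and 58.3 RPM in bes1-D control and at 95.1 and 108 RPM in bes1-D starvation, against 56.2, 46.8 and 58.1 RPM and 26.6 and 21.5 RPM in atg7-2. In no single genotype were 11 members called, and 8.97% of all tested genes.

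The interaction term tests whether the response to starvation differed from that of WT. For atg7-2 it was called for 16 members, 14 lower and 2 higher, where 37.9% of all tested genes were called (9.76% higher and 28.2% lower). The 14 lower ones were all core genes, and the difference was largest for PBD1 (−1.39 ± 0.25, adjusted p 8.46e-05), PAB1 (−1.36 ± 0.27, adjusted p 0.000259) and PAE2 (−1.34 ± 0.33, adjusted p 0.00242). PBD1 stood at 24.6, 25.6 and 29.8 RPM in atg7-2 control and at 12.8 and 12.2 RPM in atg7-2 starvation, while in WT it stood at 27.8, 30.9 and 30.6 RPM and at 39.1 and 35.9 RPM. The groups did not overlap in either genotype, as for 79.0% of all tested genes in WT and 86.1% in atg7-2. They moved in opposite ways, although the WT change of 0.33 was not called. The 2 higher ones were RPN1A (1.24 ± 0.48, adjusted p 0.0392) and AT5G20000 (0.84).

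The direction of these differences depended on the scaling. After median-of-ratios scaling the split was 12 higher and 6 lower, and without the length trend 11 higher and 3 lower, of which 10 higher and 0 lower were regulatory particle genes and 1 higher and 3 lower core genes. PAE2 and RPN1A were then not called, at −0.56 and 0.56. The median difference of core and of regulatory particle genes was −0.41 and 0.63 after median-of-ratios scaling and −0.05 and 0.52 without the length trend. What stayed under each of these settings was a regulatory particle above the core. With a library left out the count of 16 became 8 to 14, being 8 without atg7-2 control replicate 3, atg7-2 starvation replicate 2 or WT starvation replicate 1, 9 without WT starvation replicate 2 and 10 without WT control replicate 2. RPN1A was lost in 7 of these.

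For bes1-D the interaction with starvation was called for 2 members, AT3G26340 (1.23 ± 0.31, adjusted p 0.0169) and PBD2 (0.91 ± 0.24, adjusted p 0.0242), both beta genes and both higher, where 4.45% of all genes were called (2.75% higher and 1.69% lower). PBD2 stood at 65.1, 65.1 and 54.4 RPM in bes1-D control and at 89.5 and 88.6 RPM in bes1-D starvation, and at 62.8, 57.9 and 60.5 RPM and 48.1 and 45.1 RPM in WT. The groups were separate in both genotypes, as for 79.0% of all tested genes in WT and 66.3% in bes1-D. Both genes were lost when only the groups compared were fitted and without WT starvation replicate 2, and PBD2 also without WT control replicate 1, WT starvation replicate 1 or bes1-D starvation replicate 2, after median-of-ratios scaling and with edgeR. The count was 7 without bes1-D control replicate 2 and 6 without bes1-D starvation replicate 2. Without the length trend 9 members were called, 7 of them core genes, and all 9 were higher. The interaction with starvation gave 0 members for DSK2 RNAi (0.207% of genes called) and for bri1-301 (0.893% of genes called) by limma, edgeR and DESeq2, with 4 and 1 at an unadjusted p under 0.05. Without bri1-301 starvation replicate 1 the count for bri1-301 was 1. Of the interactions with dehydration none was called for any member in any genotype by these 3 tools, with 0 or 1 at an unadjusted p under 0.05, where 0.0% of genes were called for atg7-2, DSK2 RNAi and bri1-301 and 0.0656% for bes1-D.

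In unstressed leaves few differences between mutants and WT were detected. By limma 0 members differed from WT in atg7-2 (4.74% of genes called), DSK2 RNAi (0.0656%) and bri1-301 (0.963%), also by edgeR and DESeq2, and at an unadjusted p under 0.05 the counts were 0, 1 and 0. In bes1-D 3 members were lower, where 15.7% of genes were called (6.82% higher and 8.86% lower). RPN5A stood at 33.4, 47.6 and 23.1 RPM in bes1-D and at 73.1, 51.9 and 67.1 RPM in WT, without overlap, a difference of −0.92 ± 0.25 (adjusted p 0.0101). AT5G20000 differed by −0.61 ± 0.20 (adjusted p 0.0381) and PAD1 by −0.55 ± 0.17 (adjusted p 0.0283). The 3 calls rested on bes1-D control replicate 3, whose length slope was −0.43 and which had the lowest level of all 3 genes. Without it none was called, without bes1-D control replicate 2 the count was 15, and without WT control replicate 1 or 3 it was 1. With only the groups compared it was 0.

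The shares of the 2 copies of a subunit shifted between control and starvation libraries in several pairs. The 18 pairs of gene copies have coding sequences that are 80.3% to 94.4% identical, and copies of similar length share a library's length slope, so that their ratio is less exposed to it. Shares are given per kb of transcript, as descriptions with no test. RPN5A held 83.1% to 91.0% of the RPN5 transcripts in the 15 control libraries and 93.1% to 97.9% in the 10 starvation libraries, without overlap. The log2 ratio of RPN5A to RPN5B rose by 1.31 in the mean over genotypes, against an SD of 0.37 between replicates. PBC1 held 67.5% to 76.8% of the PBC transcripts in control and 81.7% to 89.8% in starvation, again without overlap, and its log2 ratio to PBC2 rose by 1.07 (SD 0.18). PBC1 was called higher and PBC2 lower (−0.53 ± 0.08) in the mean over genotypes.

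Shares moved the other way in the PBB and RPT6 pairs. PBB1 held 57.7% to 70.2% in control and 42.3% to 57.7% in starvation, its log2 ratio to PBB2 fell by 0.75 (SD 0.15), and the ranges of libraries came close without overlapping. PBB2 was called higher. PBB1 had a change of −0.22 ± 0.08 that was called with RPM as deposited and was 0.06 after median-of-ratios scaling and 0.03 with the length trend removed, not called in either. RPT6A held 42.5% to 55.1% of its pair with AT5G20000 in control and 25.9% to 46.2% in starvation, a fall of 0.90 in the log2 ratio (SD 0.13). These ranges overlap, but within each genotype the starvation libraries lay below the control libraries. RPT6A and AT5G20000 are the copies that are hardest to tell apart, since they share 145 stretches of 50 bases, the read length, which make up 6.65% and 8.32% of their transcripts. The sources used here do not state how reads that match both were assigned, so their values are uncertain to that extent. Of the other pairs only PAA (4 stretches) and RPN5 (7 stretches) shared any.

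In the PAE pair the shift depended on the genotype. PAE1 held 42.8% to 48.5% in WT control and 53.2% and 53.6% in WT starvation, 41.5% to 45.4% and 64.2% and 64.8% in bes1-D, but 42.5% to 45.0% and 45.4% and 46.1% in bri1-301. The mean change of its log2 ratio to PAE2 was 0.70 (SD 0.09). In the PAA pair PAA1 held 41.5% to 54.8% in control and 52.0% to 65.5% in starvation, with a mean change of 0.70 (SD 0.19), and in the RPT2 pair RPT2A held 84.9% to 91.4% and 88.6% to 93.8%, with a change of 0.71 (SD 0.23). With the length trend removed the changes were 1.33 for RPN5, 1.08 for PBC, −0.75 for PBB, −0.88 for RPT6, 0.70 for PAE, 0.70 for PAA and 0.70 for RPT2. Under dehydration the largest moves of the 18 pairs were −0.23 for RPT6A to AT5G20000 and 0.21 for RPT2A to RPT2B, with AT5G45620 to AT4G19006 at −0.21.

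**Figure D4:**
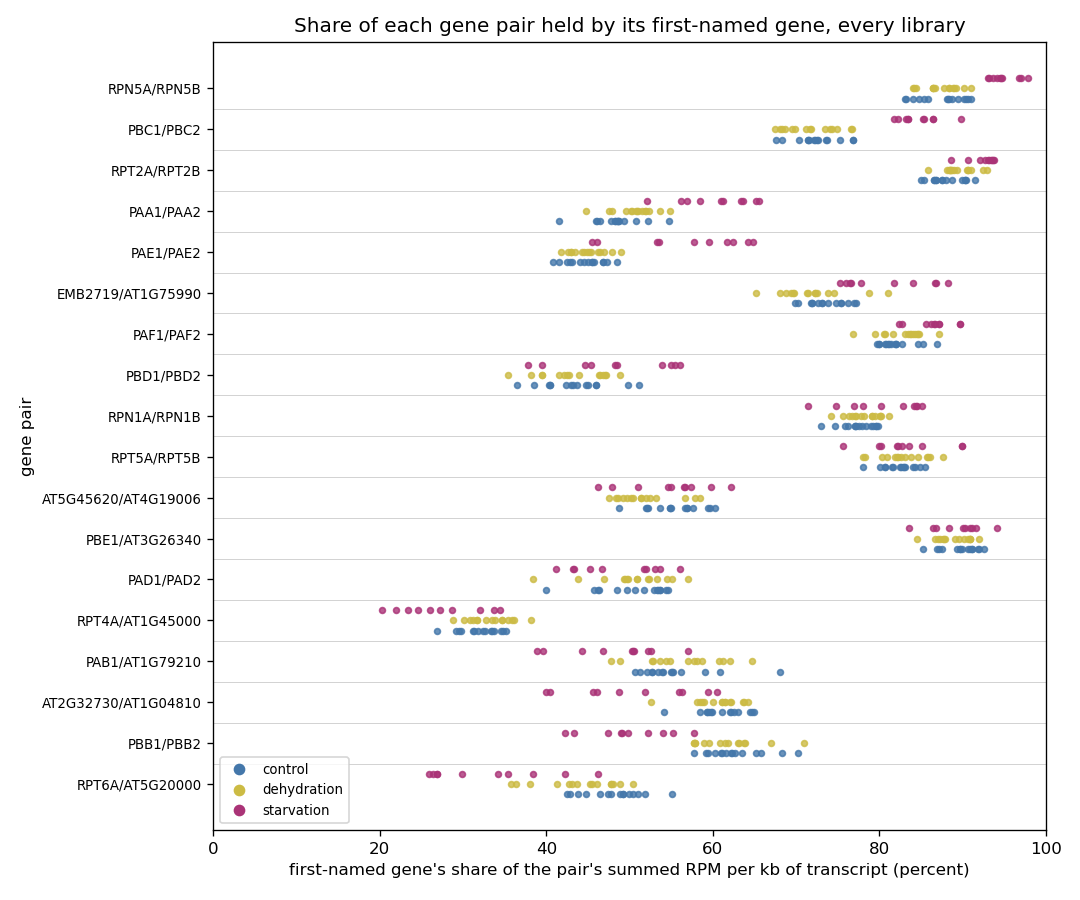
Share of each of 18 gene pairs held by its first-named gene, in percent of the pair's summed RPM per kb of transcript, 1 point per library, with control in blue, dehydration in yellow and starvation in purple, and pairs sorted by the mean change of their log2 ratio in starvation. Control and dehydration points lie together in each pair. Starvation points lie apart to the right in RPN5A/RPN5B and PBC1/PBC2 and to the left in PBB1/PBB2, and in RPT6A/AT5G20000 they lie to the left with some overlap between genotypes.

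Genes that work with the proteasome moved more than its subunits in some cases. Of 7 further annotated subunit genes 2 were called higher and 3 lower under starvation, where 32.0% of all tested genes were called higher and 48.9% lower. AT1G53780, annotated as a regulatory complex ATPase, rose by 1.17 ± 0.18 and DSS1(I) by 0.69 ± 0.12. DSS1(V) (−0.44 ± 0.12), AT4G15165 (−0.63 ± 0.10) and RPN12b (−0.48 ± 0.11) fell, the last 2 of these at levels of 2.14 RPM or less. Of 7 genes of assembly, activation and regulation 3 rose and 1 fell, beside the same shares of all genes. AT5G38650 and AT1G67250, both annotated as the maturation factor UMP1, an assembly chaperone of the core, moved apart by 1.48 ± 0.08 and −0.75 ± 0.09. AT5G38650 stood at 121 ± 5.06 RPM in WT control and at 391 ± 14.3 RPM in WT starvation (SD, n = 3 and n = 2). The transcription factor genes NAC053 and NAC2, whose products are known as activators of proteasome genes in Arabidopsis, rose by 1.22 ± 0.15 and 0.80 ± 0.11. NAC053 also rose under dehydration, by 0.46 ± 0.13 (adjusted p 0.0132), the single call of these 7 genes there. The activator gene PA200 was not called in either treatment.

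Of 20 genes of ubiquitin supply, shuttle receptors and the segregase CDC48, 9 rose and 6 fell under starvation, and 2 rose under dehydration, where 80.9% and 17.9% of all tested genes were called. The polyubiquitin gene UBQ3 rose most, by 2.46 ± 0.14, from 533 ± 57.9 RPM to 3535 ± 547 RPM in WT, and UBQ11 (0.70 ± 0.09) and UBQ14 (0.22 ± 0.09) also rose. In the mean over genotypes the shuttle receptor genes DSK2 (1.13 ± 0.08), AT2G17190 (0.24 ± 0.10) and RAD23D (0.41 ± 0.06) rose. RAD23B (−0.65 ± 0.07) and DDI1 (−0.79 ± 0.11) fell. CDC48 (0.73 ± 0.18), AtCDC48B (0.73 ± 0.17) and UFD1, a cofactor of CDC48 (0.52 ± 0.09), rose and CDC48C fell (−0.59 ± 0.16). The ubiquitin-activating enzyme gene UBA 2 fell by 1.77 on the log2 scale, and the deubiquitinase gene UBP7 by 0.65. Under dehydration UBQ11 (0.26 ± 0.08) and AtCDC48B (0.54 ± 0.15) rose. The means over DSK2 and AT2G17190 include the line in which both are targets of the knockdown. In that line DSK2 had group means of 14.8 RPM in control and 155 RPM in starvation, against 133 and 215 RPM in WT. AT2G17190 was lower in starvation in WT (69.0 to 56.4 RPM) and bri1-301 (69.7 to 60.2 RPM), and higher in the other genotypes.

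The authors' deposited table marks genes as changed or not in 14 comparisons, with a test that the sources used here do not state. For dehydration the authors' deposited table marks none of the 49 members in any of the 5 genotypes, and of all genes it marks 2.79% in WT, 0.588% in atg7-2, 18.8% in DSK2 RNAi, 2.59% in bes1-D and 8.25% in bri1-301. For starvation the authors' deposited table marks 24 members in WT (65.0% of genes with a mark of either kind), 29 in atg7-2 (74.0%), 19 in DSK2 RNAi (65.6%), 31 in bes1-D (64.0%) and 3 in bri1-301 (46.4%). For bes1-D against WT in control the authors' deposited table marks 3 members (21.5% of genes).

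The profile of the members over the 15 group means, taken as the mean z-score of the 49 genes, was most like that of EBS3 (Pearson r = 0.92), AT3G09970 (0.89), AT1G22510 (0.87), SGT1B (0.86), ATERDJ3B (0.86) and AT1G28510 (0.86) among genes outside the list, followed by GLX2-4 (0.86), DGK7 (0.84), FUT11 (0.84) and DIS1 (0.83). These are the highest of all tested genes, and the points share libraries and depth. Among the members themselves the r with that profile ran from −0.05 for RPT3 to 0.86 for PAF2. Each member is part of that mean, so these r are not set against those of genes outside the list. RPT3 and RPT5A (−0.04), which are ATPase genes called higher under starvation, had the lowest values.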

How the data were processed

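Per the labels, RNA from leaves was sequenced from single ends of 50 bases. The deposited values, called RPM in the file headers, are treated as a signal scaled by the authors, since the columns sum to between 985308 and 1023136. GSNAP, DESeq2 and TAIR10 are named in the submitters' processing notes without version or role. How reads of similar genes or strands were counted is not given there. Of 64 labelled libraries 40 have values, and 24 were not analysed here, nor were 20 columns of averages and 4591 lines without a gene identifier. Values were whole multiples of 1 read (100.0% within 0.01 reads), and replicates differed by more than sampling noise (lowest chi-square per degree of freedom 14.1).

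Groups were taken from the labels. Group means of log2(RPM + 0.5), a scale that understates changes of low genes, were fitted with limma 3.58.1 in R 4.3.3 (trended variance prior, 40 libraries, 25 residual degrees of freedom). Genes with 1 RPM in at least 2 libraries were kept. Two-sided tests were corrected by Benjamini-Hochberg adjustment over 19824 genes within each of 24 comparisons, with calls at 0.05. All SE values are of log2 changes. The fit was also run on simulated reads in which libraries had no length trend, so that run does not cover the length slopes of these libraries. Alternatives were edgeR 4.0.16 and DESeq2 1.42.0 on recovered reads, a pseudocount of 0.1, no filter on low values, median-of-ratios scaling, removal of each library's trend on transcript length, only the groups compared, replicate blocks and leaving out libraries. Transcript lengths (26711 genes), names (28009 genes matched) and promoters came from RefSeq TAIR10.1, read with Biopython 1.88.

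The members and all lists were chosen with earlier results of these data known. Genes named with full statistics were, per class, the 2 called members with the largest and the 1 with the smallest mean change under each stress, the 3 largest called in WT, up to 4 called per mutant comparison and interaction, and the 4 gene pairs whose ratio moved most. Other members named are examples. The values of 1 gene counted among those of ubiquitin supply and shuttles are not reported here.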

Additional observations from a re-analysis of the deposited data

Results flagged for a closer look

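The response to starvation differed between libraries labelled atg7-2 and WT for 16 members by the interaction term of limma at an adjusted p under 0.05, 14 of them lower, where 37.9% of all tested genes were called and 28.2% were lower. The members' share is thus near or below that of all genes. Of the alpha genes, the difference in log2 change (atg7-2 minus WT) was −0.833 for PAA2, −1.36 for PAB1, −0.753 for PAD1, −1.34 for PAE2, −0.708 for PAF1 and −0.786 for PAG1. Of the beta genes it was −0.922 for PBB1, −0.963 for PBC1, −1.12 for PBC2, −1.39 for PBD1, −0.721 for PBD2, −1.13 for PBE1, −0.912 for PBF1 and −0.562 for PBG1. In the regulatory particle it was 0.839 for AT5G20000 and 1.24 for RPN1A. The mean length slope of the starvation libraries was 0.45 in atg7-2 and −0.41 in WT, and with the length trend removed 3 core genes were called lower and 1 higher, and 10 genes of the regulatory particle higher. The response of bes1-D differed from that of WT for the beta genes PBD2, by 0.906, and AT3G26340, by 1.23.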

How the results depend on the processing

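Of the counts of called members under the alternatives 399 stayed within 1.5 times the reported count, 23 rose further and 17 fell further. In 15 of the 24 comparisons the reported count was 0, and alternatives that also gave 0 are among the 399. That number is therefore no measure of how stable the other counts were. Under dehydration the mean over genotypes gave 1 call after median-of-ratios scaling, 3 with the length trend removed, 1 with only the groups compared, and 2 each with edgeR and DESeq2, against 0 reported. With only the groups compared, starvation gave 10 calls in bes1-D and 4 in bri1-301, and bes1-D against WT gave 0 in control and 0 in the response to starvation. For bes1-D against WT in control it was 5 with the length trend removed and 0 without the 4 libraries apart by length slope. For bes1-D in the response to starvation it was 6 after median-of-ratios scaling, 9 with the length trend removed and 8 with DESeq2. The mean starvation change of PBD1 turned to 0.151 with the length trend removed. That of RPN5A turned to 0.265 after median-of-ratios scaling, 0.288 with the length trend removed, 0.221 with edgeR and 0.27 with DESeq2. The cause of these changes was not tested. With 1 library left out, calls ranged from 9 to 15 for starvation in WT, from 0 to 1 for the mean of dehydration, from 0 to 15 for bes1-D against WT in control, and, in the response to starvation, from 8 to 14 for atg7-2, from 0 to 7 for bes1-D and from 0 to 1 for bri1-301. A starvation group left with 1 library is assumed to vary like the others.

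Replicate numbers were not taken to pair libraries, since not every pair correlated. Of 15 control and dehydration pairs with the same number 10 had a correlation of deviations over 0.1 (−0.37 to 0.50), and 9 were highest with their own number, among them all 3 pairs of bes1-D and all 3 of bri1-301. With a replicate block within treatment starvation gave 17 calls in WT, 25 in atg7-2, 16 in DSK2 RNAi, 22 in bes1-D, 14 in bri1-301 and 33 in the mean, and the interactions 18 for atg7-2 and 2 for bes1-D. A replicate block of genotype and number gave 1 call for the mean of dehydration. Starvation groups of 2 libraries limit what the lowest member, RPN5B, can show. Its values lay above the floor of 3 reads in every library.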
